A study of Mus musculus with 9 samples.

Results

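The NRF2 antioxidant pathway was followed through 10 of its genes in 9 whole-kidney RNA libraries of mice. The genes were taken by symbol from both count tables: Nfe2l2 and Keap1, which encode the transcription factor NRF2 and its inhibitor, and 8 established NRF2 targets outside the transferase families (Nqo1, Hmox1, Gclc, Gclm, Txnrd1, Srxn1, Me1 and G6pdx). All 10 were present among the 52160 symbols shared by the tables, and all 10 passed the filter on low counts, which left 18067 tested genes. The mice were 16 weeks old on a C57Bl/6N background and fell into 3 groups of 3 libraries. The groups were wild type (WT, from a commercial supplier), YBX1ΔPod with Ybx1 deleted from podocytes (ΔPod), and YBX1K2A (K2A), in which podocytes carry a Ybx1 protein that cannot be secreted because of the substitutions K299A and K302A in exon 7. Ybx1 encodes a cold shock protein that binds nucleic acids, and podocytes are the epithelial cells of the glomerular filter. The Cre driver, the sex of the animals and any pooling of animals are not given in the sources used here, and a supplier is named for wild-type mice only. Nothing in the labels ties the libraries to separate animals, so p-values measure the spread between these libraries.

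NRF2 is kept low in unstressed cells because KEAP1 hands it to the CUL3 ubiquitin ligase for degradation. Oxidants and electrophiles modify cysteines of KEAP1, NRF2 then accumulates, pairs with small MAF proteins and binds antioxidant response elements near genes for glutathione synthesis, thioredoxin recycling, quinone and haem detoxification and NADPH supply. Since NRF2 is controlled largely at the level of its protein, transcripts of its targets are commonly read as a record of its activity, and in the kidney the pathway is known for limiting oxidative injury of tubule cells. Libraries of whole kidney consist mostly of tubule RNA, and in them fewer cells of a type and less RNA per cell cannot be told apart.

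RefSeq promoter windows (GRCm38.p6, 250 bases before to 50 after a transcript start) existed for 8 of the 10 genes, in 11 windows, and they were searched on both strands for the core of the antioxidant response element, TGACNNNGC. This core was found in 6 of the 11 windows (54.5%), 1 each for Nfe2l2, Gclm, Txnrd1, Srxn1, Me1 and G6pdx, against 12.4% of all 32851 windows in the table. The variant TGAGNNNGC was found in 1 of the 11 windows, that of Srxn1, against 17.6% of all windows. Printed here are the windows of Me1, which passed the test in both mutants, Gclm, whose counts lay below WT in all 6 mutant libraries, and Srxn1, whose groups overlapped throughout. They are cut at 30 bases after the start, read 5′ to 3′ in the sense of transcription, and have complete matches to either core in capitals. They lie at chr9:86695885-86696164 on the minus strand (Me1), chr3:122245307-122245586 on the plus strand (Gclm) and chr2:152105274-152105553 on the plus strand (Srxn1).
Me1: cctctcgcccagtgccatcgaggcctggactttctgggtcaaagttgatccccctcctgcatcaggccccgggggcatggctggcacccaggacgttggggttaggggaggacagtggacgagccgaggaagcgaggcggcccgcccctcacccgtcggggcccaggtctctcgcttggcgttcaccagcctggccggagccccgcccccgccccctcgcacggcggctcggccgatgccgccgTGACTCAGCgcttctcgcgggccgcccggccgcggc
Gclm: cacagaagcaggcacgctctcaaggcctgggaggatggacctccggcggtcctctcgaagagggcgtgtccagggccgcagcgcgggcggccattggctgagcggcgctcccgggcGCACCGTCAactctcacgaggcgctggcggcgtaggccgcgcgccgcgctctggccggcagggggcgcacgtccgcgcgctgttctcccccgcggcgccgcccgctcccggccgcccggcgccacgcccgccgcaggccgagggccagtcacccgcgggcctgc
Srxn1: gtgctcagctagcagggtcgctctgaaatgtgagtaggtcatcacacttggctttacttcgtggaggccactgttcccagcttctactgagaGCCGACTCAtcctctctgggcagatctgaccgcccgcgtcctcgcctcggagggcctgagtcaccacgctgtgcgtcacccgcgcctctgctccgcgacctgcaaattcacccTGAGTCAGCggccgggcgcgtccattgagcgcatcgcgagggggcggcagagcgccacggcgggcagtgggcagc

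The core of Me1, TGACTCAGC, spans the start itself, from base -6 to base 3 of the transcript. The 7 bases TGAGTCA, the site of the AP-1 factors, overlapped that core on the other strand in Me1 and occurred at bases -102 and -45 of Srxn1, the latter inside its second capital stretch. That AP-1 site was held by 5.2% of all windows. The remaining core of Srxn1, TGACCTAGC on the minus strand, runs from base 29 to base 37 after the start, so the stretch shown cuts it after its opening letters. For the other 3 genes with a match, the core is given with 10 bases on each side.
Nfe2l2: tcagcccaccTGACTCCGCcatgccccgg
Txnrd1: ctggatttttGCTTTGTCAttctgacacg
G6pdx: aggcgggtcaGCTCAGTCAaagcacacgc
These letters describe the sequence near the starts and say nothing about occupancy, and a core outside the window would not be seen.

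Total counts ran from 30777142 to 46882253 per library, and the 10 genes were covered by 193 counts (G6pdx in ΔPod 1) to 23282 counts (Me1 in WT 3). Proximal tubule markers (10 genes) summed to 13435 to 22245 CPM (counts relative to the TMM-scaled library total) in WT, to 4437 to 15340 CPM in ΔPod and to 6160 to 12085 CPM in K2A. Tubule RNA was thus present in every library, but these markers were lower in the mutants (means 19199, 8859 and 8373 CPM). Among mutant libraries only ΔPod 3 reached the WT range. The part of this difference in the values of the 10 genes was not tested. One set of libraries was richer in long transcripts (long class: WT 1, WT 3, ΔPod 3, K2A 3) and the other in short ones (short class: WT 2, ΔPod 1, ΔPod 2, K2A 1, K2A 2), and the 79 ribosomal protein genes, which are short, held 0.900 to 1.04% of counts in the long class against 2.18 to 7.23% in the short class. Adipocyte markers (9 genes) summed to 110.2 to 120.1 CPM in WT but to 546, 145 and 24.2 CPM in ΔPod 1, 2 and 3 and to 505, 1325 and 44.3 CPM in K2A 1, 2 and 3. The libraries with the highest sums, ΔPod 1, K2A 1 and K2A 2, are of the short class, and the lowest, ΔPod 3 and K2A 3, of the long class. Adipocyte content and length class therefore cannot be fully told apart in the mutants. The adipocyte transcripts Retn and Ucp1 had 0 counts in all WT libraries and in K2A 3. Most of the WT sum came from a single gene, Car3 in WT 1 and WT 3 (77.5 and 78.4 CPM) and Fabp4 in WT 2 (79.5 CPM). Of the sex-linked genes, 4 of 4 from the Y chromosome were called lower in both mutants. With Xist added, the 5 sex-linked genes summed to 94.4 to 119 CPM in WT, 17.0 to 124 CPM in ΔPod and 30.8 to 331 CPM in K2A. The sum of 6 autosomal male-biased kidney genes was 3151 to 3532 CPM in WT against 8.42 to 16.9 CPM in ΔPod and 13.6 to 31.5 CPM in K2A. That of 2 autosomal female-biased kidney genes, Slc7a12 and Prlr, went the other way, at 9.22 to 25.1 CPM in WT against 345 to 388 CPM in ΔPod and 221 to 268 CPM in K2A. Genotype and this sex-related difference cannot be told apart in any comparison with WT below.

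Of the 10 genes, Me1 alone passed the edgeR quasi-likelihood test with Benjamini-Hochberg adjustment at 0.05, and it did so in both mutants, as a fall to about the same level. The count was 1 of 10 in ΔPod, where 0.985% of all genes were called (0.587% lower and 0.399% higher), and 1 of 10 in K2A, where 0.847% were called (0.526% lower and 0.321% higher). Hmox1, Gclm and Keap1 lay below the whole WT range in every mutant library without passing the test. Nfe2l2, Nqo1, Srxn1 and G6pdx overlapped WT in both mutants. Both mutant comparisons use the same 3 WT libraries and are not independent of each other.

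**Figure D1:**
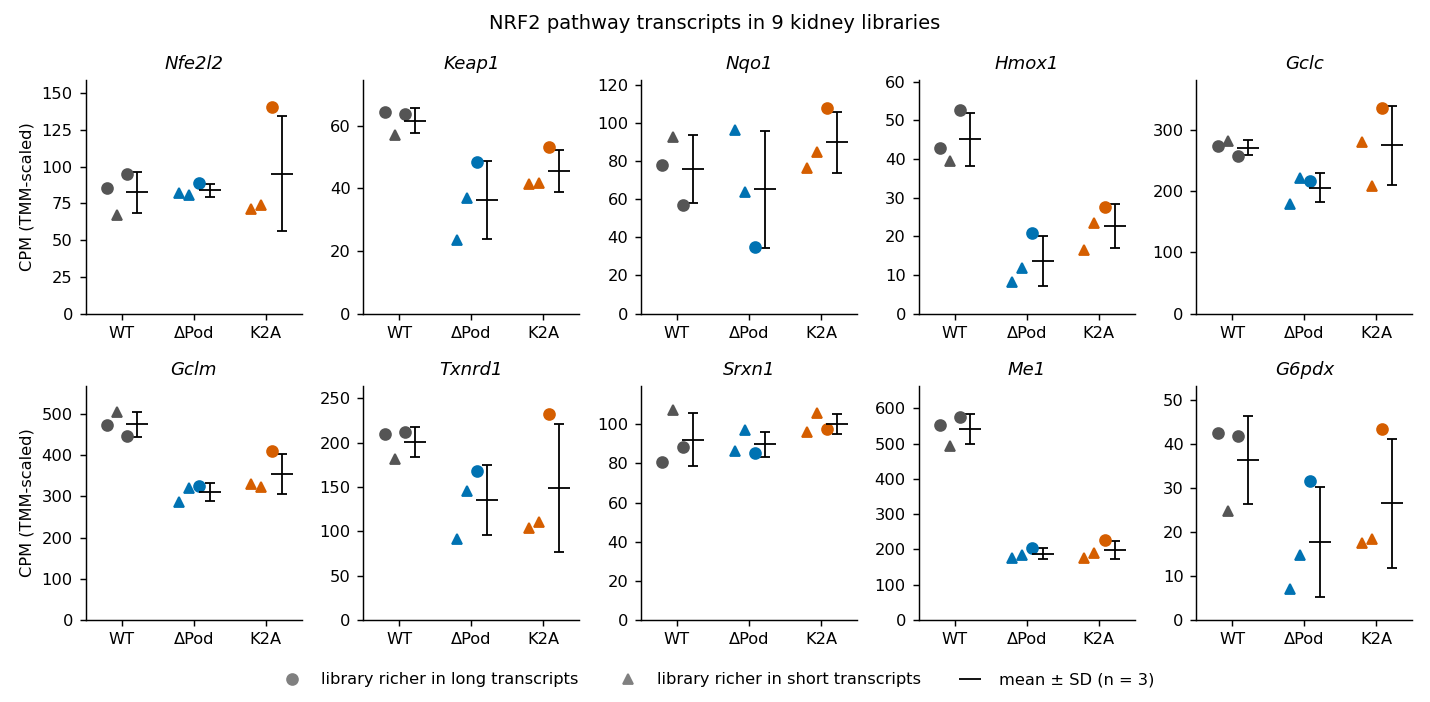
CPM (TMM-scaled counts, vertical axis from 0) of the 10 genes in each library, by group. Each point is a library, circles for the class richer in long transcripts and triangles for the class richer in short ones, and bars give the mean ± SD (n = 3). Me1 lies between 494 and 575 CPM in WT and between 176 and 227 CPM in all mutant libraries, while Nfe2l2, Nqo1, Srxn1 and G6pdx overlap between WT and both mutants.

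The regulators came first. Nfe2l2 (chromosome 2, 75675513 to 75704641, minus strand, mm10) was measured at 85.8, 67.0 and 94.7 CPM in WT 1, 2 and 3, at 82.1, 80.4 and 89.1 CPM in ΔPod 1, 2 and 3, and at 70.9, 74.2 and 140.4 CPM in K2A 1, 2 and 3. The groups overlapped, and the single high value belonged to K2A 3. For Nfe2l2, the edgeR log2 fold change of ΔPod over WT was 0.02 (SE 0.32, adjusted p = 0.971) and that of K2A was 0.21 (SE 0.32, adjusted p = 0.839), neither past the threshold. Without K2A 3 the K2A value was -0.23, so its direction rested on that library.

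Keap1 (chromosome 9, 21229730 to 21239361, minus strand), the cysteine-rich sensor that targets NRF2 for degradation, was measured at 64.3, 56.9 and 63.8 CPM in WT. It stood at 23.5, 36.8 and 48.6 CPM in ΔPod and at 41.5, 41.6 and 53.3 CPM in K2A. Every mutant library lay below the lowest WT library. For Keap1, the edgeR log2 fold change of ΔPod over WT was -0.76 (SE 0.31, adjusted p = 0.342) and that of K2A was -0.44 (SE 0.31, adjusted p = 0.708). Keap1 passed in ΔPod when the length slope of each library was a covariate (-0.58, adjusted p = 0.0255). This slope comes from regressing log2 CPM, centred on the mean of each gene over the 9 libraries, on log2 transcript length. In K2A the Keap1 difference shrank to -0.013 (adjusted p = 0.979) with the mean adipocyte marker level as a covariate. It was -0.20 without the 3 libraries with high adipocyte markers, where K2A 3 is the only K2A library left. Both fits were chosen after seeing the data. Because Keap1 was lower and Nfe2l2 was not, the ratio of Keap1 to Nfe2l2 CPM within a library was 0.757 ± 0.0881 in WT, 0.430 ± 0.132 in ΔPod and 0.509 ± 0.112 in K2A (mean ± SD, n = 3). The highest mutant ratio, 0.586 in K2A 1, lay below the lowest WT ratio, 0.673 in WT 3. Such a ratio does not depend on how libraries were scaled, and it is given without a test.

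Nqo1 and Hmox1 handle quinones and haem. Nqo1 (chromosome 8, 107388225 to 107403206, minus strand), the quinone reductase often used as a readout of NRF2, was measured at 77.7, 92.5 and 57.1 CPM in WT. It stood at 96.2, 64.0 and 35.1 CPM in ΔPod and at 76.3, 84.9 and 107.7 CPM in K2A. ΔPod 1 was above and ΔPod 3 below every WT library, and the K2A libraries ran from inside the WT range to above it. For Nqo1, the edgeR log2 fold change of ΔPod over WT was -0.22 (SE 0.39, adjusted p = 0.770) and that of K2A was 0.24 (SE 0.39, adjusted p = 0.842).

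Hmox1 (chromosome 8, 75093621 to 75100589, plus strand), the inducible haem oxygenase, which cleaves haem to biliverdin, iron and carbon monoxide, had the largest fold change of the 10 in ΔPod. It was measured at 43.0, 39.6 and 52.8 CPM in WT, at 8.17, 11.8 and 20.8 CPM in ΔPod and at 16.5, 23.6 and 27.7 CPM in K2A. No mutant library reached the WT range, and ΔPod 1 was the lowest of all. For Hmox1, the edgeR log2 fold change of ΔPod over WT was -1.73 (SE 0.39, adjusted p = 0.100) and that of K2A was -0.99 (SE 0.39, adjusted p = 0.381). Hmox1 passed in ΔPod in 7 of 22 alternative fits, among them DESeq2 (adjusted p = 0.00123), a term for the length class (adjusted p = 0.0108) and the fit without ΔPod 3 (-2.21, adjusted p = 0.0318). In K2A, Hmox1 lay below 0 in 22 of 22 alternative fits and passed in 2 of 22. These were the length slope as a covariate (-0.75, adjusted p = 0.0256) and limma-voom. With the adipocyte covariate Hmox1 in K2A was at -0.49 (adjusted p = 0.440). Macrophages, a known site of Hmox1 transcription, gave marker sums (8 genes) of 345 to 387 CPM in WT, 315 to 418 CPM in ΔPod and 216 to 427 CPM in K2A, which overlapped. Erythroid marker sums (6 genes) were 202 to 865, 137 to 1005 and 398 to 582 CPM in the same order. The part of these cells in the Hmox1 values was not tested.

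Gclc and Gclm encode the catalytic and the modifier subunit of glutamate-cysteine ligase, the rate-limiting enzyme of glutathione synthesis. Gclm (chromosome 3, 122245557 to 122270732, plus strand) was measured at 474, 506 and 446 CPM in WT, at 286, 321 and 325 CPM in ΔPod and at 331, 323 and 410.0 CPM in K2A. All mutant libraries were below all WT libraries, with K2A 3 the nearest. For Gclm, the edgeR log2 fold change of ΔPod over WT was -0.61 (SE 0.23, adjusted p = 0.327) and that of K2A was -0.42 (SE 0.23, adjusted p = 0.6005). DESeq2 called Gclm in ΔPod (adjusted p = 0.0361). In K2A, Gclm was at -0.24 with the adipocyte covariate. It was at -0.20 without the libraries with high adipocyte markers, a fit in which K2A 3 alone stands for K2A.

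Gclc (chromosome 9, 77754535 to 77794485, plus strand) was measured at 273, 281 and 257 CPM in WT, at 179, 221 and 217 CPM in ΔPod and at 280.4, 207 and 335 CPM in K2A. It lay below WT in all ΔPod libraries, whereas the K2A libraries fell on both sides of the WT range. For Gclc, the edgeR log2 fold change of ΔPod over WT was -0.40 (SE 0.26, adjusted p = 0.467) and that of K2A was 0.02 (SE 0.26, adjusted p = 0.981), and the sign in K2A changed with the scaling method (-0.03 with RLE factors). The ratio of Gclm to Gclc CPM was narrow in WT, at 1.73, 1.80 and 1.73, and lower in all mutant libraries, at 1.596, 1.45 and 1.499 in ΔPod and at 1.18, 1.56 and 1.22 in K2A. The group values were 1.76 ± 0.0389 in WT, 1.52 ± 0.0722 in ΔPod and 1.32 ± 0.207 in K2A (mean ± SD, n = 3), given without a test. Ratios of the remaining pairs separated less. Txnrd1 over Srxn1 overlapped WT in both mutants. Hmox1 over Nqo1 and Me1 over G6pdx overlapped WT in ΔPod and lay below it in K2A. How often ratios of other gene pairs separate in this way was not tested.

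Txnrd1 and Srxn1 restore oxidised thioredoxin and hyperoxidised peroxiredoxins. Txnrd1 (chromosome 10, 82833951 to 82897712, plus strand), the cytosolic thioredoxin reductase, was measured at 209, 182 and 212 CPM in WT, at 91.4, 145 and 168 CPM in ΔPod and at 104, 111 and 232 CPM in K2A. The ΔPod libraries lay below WT, while K2A 3 lay above every other library and the other K2A libraries below WT. For Txnrd1, the edgeR log2 fold change of ΔPod over WT was -0.57 (SE 0.38, adjusted p = 0.471) and that of K2A was -0.43 (SE 0.38, adjusted p = 0.762).

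Srxn1 (chromosome 2, 152105516 to 152111376, plus strand), sulfiredoxin, had the narrowest range over the 9 libraries of the 10 genes. It was measured at 81.0, 107.4 and 88.3 CPM in WT, at 86.3, 97.2 and 85.6 CPM in ΔPod and at 96.2, 105.8 and 97.8 CPM in K2A. All mutant libraries lay inside the WT range. For Srxn1, the edgeR log2 fold change of ΔPod over WT was -0.04 (SE 0.23, adjusted p = 0.933) and that of K2A was 0.12 (SE 0.23, adjusted p = 0.870).

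Me1 and G6pdx supply NADPH, which the glutathione and thioredoxin systems consume. Me1 (chromosome 9, 86581371 to 86695953, minus strand), the cytosolic malic enzyme, which also feeds fatty acid synthesis, was measured at 553, 494 and 575 CPM in WT, at 177, 183 and 204 CPM in ΔPod and at 176, 190.4 and 227 CPM in K2A. The mutant libraries clustered closely and far from WT, at means of 188 ± 14.5 CPM in ΔPod and 198 ± 26.1 CPM in K2A against 541 ± 42.0 CPM in WT (SD, n = 3). For Me1, the edgeR log2 fold change of ΔPod over WT was -1.52 (SE 0.24, adjusted p = 0.0283) and that of K2A was -1.45 (SE 0.24, adjusted p = 0.0338), and Me1 was lower in 6 of 6 mutant libraries. Within the long class the difference of Me1 from WT was -1.47 in ΔPod and -1.31 in K2A on the log2 scale, and within the short class it was -1.46 and -1.43. These differences rest on 1 or 2 libraries a side and carry no test. The short class does not hold the length difference constant, with a length slope of -0.073 in WT 2 against -0.17 to -0.45 in its mutant libraries.

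The fall of Me1 kept its direction in 22 of 22 alternative fits in each mutant, between -1.62 and -1.33 for ΔPod and between -1.61 and -1.24 for K2A, while the call held in 11 of 22 and 12 of 22. It did not pass when any 1 WT library was left out (adjusted p = 0.154, 0.0991 and 0.155 in ΔPod and 0.183, 0.118 and 0.186 in K2A without WT 1, 2 and 3). Among mutant libraries it was lost in ΔPod without ΔPod 1, ΔPod 2, K2A 1 or K2A 2 (adjusted p = 0.0727, 0.176, 0.0739 and 0.0797) and in K2A without ΔPod 2, K2A 1 or K2A 2 (adjusted p = 0.0989, 0.209 and 0.221). Adipocytes transcribe Me1, and their markers were high in ΔPod 1, K2A 1 and K2A 2, where Me1 stood at 177, 176 and 190.4 CPM, against 183, 204 and 227 CPM in the other mutant libraries. Further fits were chosen after seeing the data. With the mean adipocyte marker level as a covariate Me1 passed in both mutants (-1.44, adjusted p = 0.00636 for ΔPod, and -1.29, adjusted p = 0.0288 for K2A). Without those 3 libraries Me1 was at -1.48 in ΔPod and at -1.24 in K2A, where K2A 3 is the only K2A library left.

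G6pdx (chromosome X, 74409483 to 74429194, minus strand), the entry enzyme of the pentose phosphate pathway, had the largest standard errors of the 10 genes. It was measured at 42.4, 24.7 and 41.7 CPM in WT, at 6.98, 14.8 and 31.5 CPM in ΔPod and at 17.4, 18.5 and 43.4 CPM in K2A. The groups overlapped, and in each group the long-class libraries were the highest. For G6pdx, the edgeR log2 fold change of ΔPod over WT was -1.03 (SE 0.59, adjusted p = 0.424) and that of K2A was -0.46 (SE 0.58, adjusted p = 0.813). Ikbkg, which overlaps G6pdx on the opposite strand, stood at 29.7 to 44.6 CPM, and since the strand setting of the counting is not stated, some G6pdx counts may belong to it. Other annotated genes that overlap any of the 10 and were measured reached at most 1.56 CPM.

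**Figure D2:**
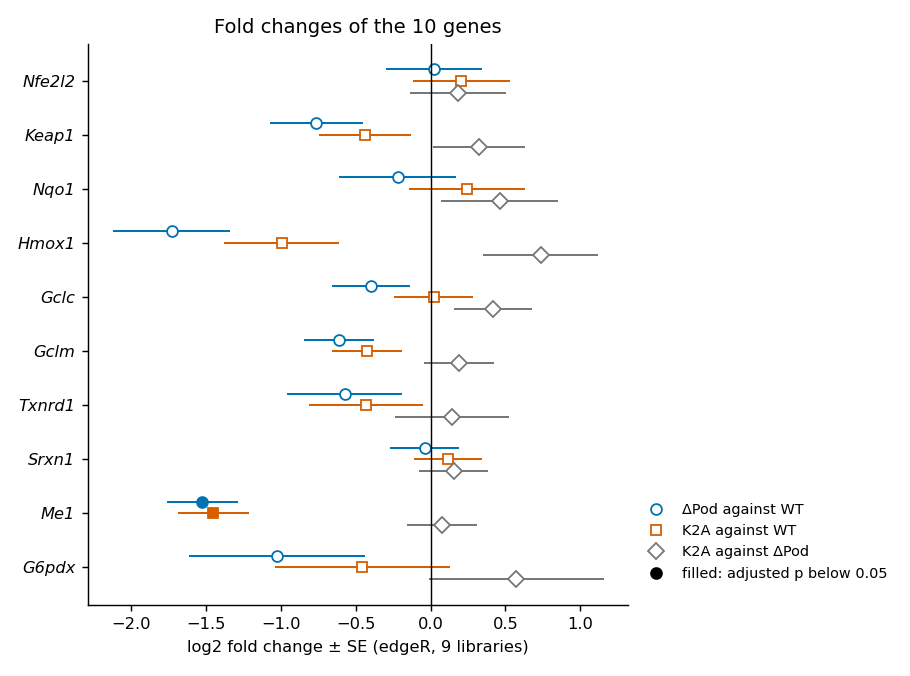
Log2 fold change with its SE (horizontal axis, edgeR fit of 9 libraries) of each gene in ΔPod against WT, K2A against WT and K2A against ΔPod. Filled symbols passed at an adjusted p below 0.05, which holds for Me1 alone, at -1.52 and -1.45, and the 10 values of K2A against ΔPod all lie to the right of 0.

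As a group, the 10 genes had a median log2 fold change of -0.59 in ΔPod, where 9 of 10 lay below 0, against a median of 0.08 and 46.6% below 0 over all tested genes. In K2A the median was -0.43 and 6 of 10 lay below 0, against 0.09 and 44.4% over all genes. Groups did not overlap, with every mutant library lower, for 6 of 10 genes in ΔPod (Keap1, Hmox1, Gclc, Gclm, Txnrd1 and Me1), against 9.47% of all genes. In K2A this held for 4 of 10 (Keap1, Hmox1, Gclm and Me1), against 9.18% of all genes. For 0 of 10 did all libraries of a mutant lie above the WT range, against 8.73% of all genes in ΔPod and 11% in K2A.

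Between the mutants, all 10 genes were nominally higher in K2A than in ΔPod, and 0 passed the edgeR test (adjusted p = 1 for each). Over all genes 0 were called (0% of 18067), 364 (2.01%) had an unadjusted p below 0.05, and DESeq2 called 19 (0.105%). None of the 10 had an unadjusted p below 0.05 in edgeR, and DESeq2 called 0 of them. Hmox1 had the largest difference, 0.74 (SE 0.39), followed by G6pdx at 0.57 (SE 0.58) and Nqo1 at 0.46 (SE 0.39). Me1 had the smallest, 0.07 (SE 0.23), with means of 188 and 198 CPM. The median of the 10 was 0.26 against -0.01 over all genes, and groups overlapped for all 10, while 3.51% of all genes lay higher and 1.61% lower in K2A without overlap. Over all genes 51.2% lay below 0 in this comparison.

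Levels were also set side by side by transcript-length class. In all 3 groups the long-class libraries lay above the short-class libraries for Nfe2l2, Keap1, Hmox1, Txnrd1, Me1 and G6pdx, 6 of 10, against 34.4% of all tested genes, and in no group for Srxn1. The reverse in all 3 groups held for 35.2% of all genes. The gap (log2 of the long over the short mean) of G6pdx was 1.53 in ΔPod and 1.27 in K2A, that of Txnrd1 1.12 in K2A and that of Hmox1 1.06 in ΔPod. Nqo1 had a gap of the opposite sign in ΔPod, -1.19, and in WT, -0.46, but 0.42 in K2A. Within the long class, with WT 1 and WT 3 against a single mutant library, Hmox1 differed from WT by -1.20 in ΔPod and -0.79 in K2A, and within the short class, with WT 2 alone against a pair of mutant libraries, by -1.99 and -0.98. Keap1 was at -0.40 and -0.26 within the long class and -0.92 and -0.45 within the short class, and Gclm was at -0.50 and -0.17 against -0.74 and -0.63. Hmox1, Keap1 and Gclm were thus lower than WT within both classes. The classes follow the sign of the length slope and are not even within. WT 2 had a slope of -0.073, against -0.45 and -0.17 in ΔPod 1 and 2 and -0.24 and -0.26 in K2A 1 and 2. The comparison within the short class therefore does not hold the length difference constant.

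In K2A, Txnrd1 was lower than WT within the short class only, at -0.76 against 0.14 within the long class, and so was G6pdx, at -0.46 against 0.05. Nfe2l2 in K2A was at 0.64 and 0.11 within the long and short class. Nqo1 in K2A was at 0.68 within the long and -0.20 within the short class, and Gclc at 0.34 and -0.20. In ΔPod Nqo1 was at -0.94 and -0.21, Txnrd1 at -0.32 and -0.62 and Gclc at -0.29 and -0.49. The class comparisons rest on 1 or 2 libraries a side and carry no test.

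**Figure D3:**
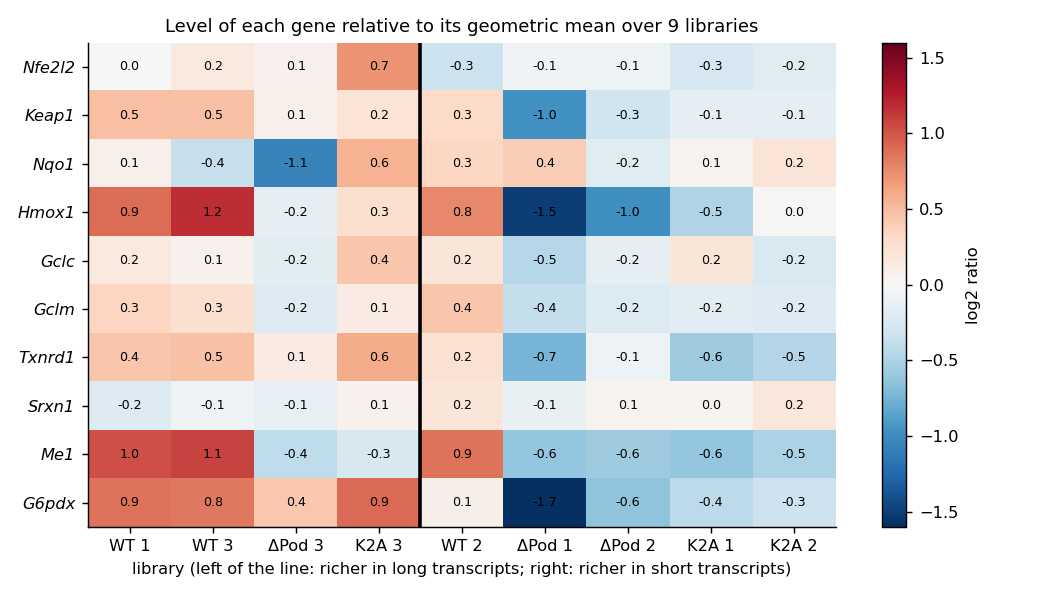
Log2 level of each gene in each library relative to its geometric mean over the 9 libraries, with the long-class libraries left of the line and the short-class libraries right of it. The Me1 row is high in the 3 WT libraries on both sides of the line, whereas the G6pdx row follows the line, with ΔPod 1 the lowest library.

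Per kilobase of the longest annotated transcript (RPKM from the scaled CPM), Me1 was the most abundant of the 10 in WT, at 164 ± 12.8 RPKM (mean ± SD, n = 3), clear of Gclm (85.1 ± 5.39) and Gclc (79.1 ± 3.52), whose ranges overlapped. Below them, without overlap, came Txnrd1 (55.5), and then Nqo1 (48.8), Nfe2l2 (33.3), Srxn1 (32.8) and Hmox1 (28.7), where each neighbouring pair overlapped. Keap1 (17.1) and G6pdx (13.7) were the lowest, and overlapped. In the mutants Me1 lost its lead: Gclc came first at 60.0 ± 6.71 RPKM in ΔPod and 80.2 ± 18.8 RPKM in K2A, and Me1 stood at 57.1 ± 4.40 RPKM in ΔPod, behind Gclc, and at 60.1 ± 7.94 RPKM in K2A, behind Gclc and Gclm. The ranges of Me1, Gclc and Gclm overlapped in both mutants. This order depends on the transcript used: with the median transcript length Gclm came first in WT at 542 RPKM, Gclc second at 334 and then Me1 at 249, and Srxn1 reached 207 RPKM.

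Partners and regulators of NRF2 were described from a list of 14 tested genes, of which 0 passed the edgeR test in either mutant (2 had an unadjusted p below 0.05 in each, and DESeq2 called 1 in each). Over all tested genes 13.8% in ΔPod and 10.6% in K2A had an unadjusted p below 0.05, and DESeq2 called 5.52% and 5.03%, so these counts are near the background. Their median log2 fold change was -0.46 in ΔPod and -0.37 in K2A, near that of the 10 genes. Sqstm1, the autophagy receptor p62, which binds KEAP1, was measured at 777, 647 and 766 CPM in WT, at 261, 351 and 431 CPM in ΔPod and at 368, 388 and 558 CPM in K2A. No mutant library of Sqstm1 reached the WT range (-1.07, adjusted p = 0.195 in ΔPod, and -0.74, adjusted p = 0.409 in K2A). Nfe2l3, a related factor, was nearly absent, at 0.0859 to 0.321 CPM in WT and 0.557 to 1.302 CPM in K2A (2.28, adjusted p = 0.208).

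Targets in the transferase families gave the other calls of the pathway lists. Of 13 tested genes for glutathione and glucuronosyl transferases 2 were called higher and 0 lower in ΔPod, and 1 was called higher and 0 lower in K2A (over all genes, 0.399% and 0.321% were called higher and 0.587% and 0.526% lower), with medians of 0.34 and 0.45. In edgeR 8 had an unadjusted p below 0.05 in ΔPod and 5 in K2A (13.8% and 10.6% of all genes). DESeq2 called 5 and 3 (5.52% and 5.03% of all genes). Directions were mixed, with 5 of 13 below 0 in ΔPod and 4 in K2A. In ΔPod 3 lay wholly below and 4 wholly above WT (9.47% and 8.73% of all genes), and in K2A 0 and 5 (9.18% and 11%). Gsta2, an alpha-class glutathione transferase, was measured at 96.7, 86.3 and 80.5 CPM in WT, at 305, 340.5 and 381 CPM in ΔPod and at 344, 409 and 284 CPM in K2A. Gsta2 thus rose in both mutants (1.96, adjusted p = 0.0136, and 1.98, adjusted p = 0.0165, edgeR), opposite to Me1. The direction held in 22 of 22 alternative fits in each mutant and the call in 16 of 22. The Gsta2 call was lost without any 1 WT library in both mutants, without ΔPod 2 in ΔPod and without K2A 1 or K2A 2 in K2A (adjusted p = 0.0840 to 0.116 in ΔPod and 0.0935 to 0.126 in K2A over these fits). Gsta4, which conjugates lipid peroxidation products, rose in ΔPod from 36.9 ± 5.17 to 287 ± 126 CPM (mean ± SD; 2.96, adjusted p = 0.0313), and in K2A it stood at 224 ± 111 CPM (2.60, adjusted p = 0.0536). The Gsta4 call in ΔPod held in 14 of 22 alternative fits and was lost without any 1 WT library, ΔPod 1, ΔPod 2, K2A 1 or K2A 2 (adjusted p = 0.0509 to 0.189). In K2A, Gsta4 passed in 11 of 22. Reads of near-identical Gsta copies may have been split or dropped in the counting, which makes these values uncertain.

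Among 19 tested targets outside the transferases and the 10 genes, 0 passed the edgeR test in either mutant, 5 had an unadjusted p below 0.05 in each, and DESeq2 called 4 in ΔPod and 2 in K2A, against 13.8% and 10.6% of all genes by p and 5.52% and 5.03% by DESeq2. The median was -0.24 in ΔPod and -0.09 in K2A. Some genes, such as Pgd and Fth1, stand in several of the lists. Abcc3, an export pump for conjugates, was measured at 2.13, 0.830 and 1.63 CPM in WT, at 19.6, 52.6 and 59.9 CPM in ΔPod and at 19.9, 17.3 and 119 CPM in K2A (4.84, adjusted p = 0.0571, and 5.09, adjusted p = 0.0540). Cbr3, a carbonyl reductase, was at 1.497 to 3.09 CPM in WT, 4.84 to 16.4 CPM in ΔPod and 10.1 to 17.4 CPM in K2A (2.31, adjusted p = 0.0983, and 2.57, adjusted p = 0.0741). For both, all mutant libraries lay above WT without passing the test.

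Glutathione use and recycling was described by 11 tested genes, with 0 called by edgeR, 3 and 2 at an unadjusted p below 0.05 in ΔPod and K2A (13.8% and 10.6% of all genes), and 2 and 1 called by DESeq2 (5.52% and 5.03% of all genes). Ggt1, the brush-border enzyme that begins extracellular glutathione breakdown, was measured at 2036, 1466 and 1900 CPM in WT, at 300.1, 570 and 668 CPM in ΔPod and at 500.1, 518 and 704 CPM in K2A. Its mutant libraries were all below WT (-1.81, adjusted p = 0.0666, and -1.65, adjusted p = 0.0932). Glrx, glutaredoxin, was at 26.9 to 31.9 CPM in WT and 15.5 to 18.8 CPM in ΔPod (-0.80, adjusted p = 0.212), and at 24.5 to 28.1 CPM in K2A (-0.15, adjusted p = 0.835).

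Superoxide dismutases, catalase, peroxiredoxins and other antioxidant enzymes were described by 13 tested genes, with 0 called by edgeR or DESeq2 and 1 at an unadjusted p below 0.05 in each mutant, a share no higher than the 13.8% and 10.6% of all genes. Their medians, -0.06 and -0.15 in ΔPod and K2A, compare with 0.08 and 0.09 over all genes. Msrb1, a methionine sulfoxide reductase, had the smallest p (-1.16 in ΔPod, adjusted p = 0.281, and -1.01 in K2A, adjusted p = 0.382), and Sod3, the extracellular superoxide dismutase, the next (-1.29, adjusted p = 0.407, and -0.95, adjusted p = 0.719).

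Enzymes that make NADPH were described by 13 tested genes beside Me1 and G6pdx, with 0 called by edgeR or DESeq2 and 0 at an unadjusted p below 0.05 in either mutant, against 13.8% and 10.6% of all genes. Their medians were -0.25 and -0.11. The smallest p belonged to Pgd, the pentose phosphate enzyme after G6pdx (-1.15, adjusted p = 0.384 in ΔPod, and -0.57, adjusted p = 0.776 in K2A), and to H6pd, the counterpart of G6pdx in the endoplasmic reticulum (-1.33, adjusted p = 0.404, and -0.74, adjusted p = 0.774). The malic enzymes of mitochondria, Me2 and Me3, which were looked up as paralogs of Me1, were at 0.31 and 0.19 in ΔPod and at 0.47 and 0.42 in K2A, without passing.

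Haem and iron handling was described by 9 tested genes beside Hmox1, with 0 called by edgeR, 2 at an unadjusted p below 0.05 in each mutant (13.8% and 10.6% of all genes), and 2 and 1 called by DESeq2 (5.52% and 5.03% of all genes). Slc40a1, the iron exporter ferroportin, was at 42.2 to 57.9 CPM in WT, 76.4 to 91.6 CPM in ΔPod and 69.9 to 85.4 CPM in K2A (0.72, adjusted p = 0.278, and 0.61, adjusted p = 0.393). Fth1, the ferritin heavy chain, was at 5340 to 6778 CPM in WT and 3028 to 4028 CPM in ΔPod (-0.74, adjusted p = 0.316), and at 4985 to 5956 CPM in K2A (-0.11, adjusted p = 0.890). The median of the 9 was 0.00 in ΔPod and 0.24 in K2A.

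Because Me1 also serves fatty acid synthesis, 12 lipogenic genes were described, and 0 were called by edgeR in either mutant (3 and 5 at an unadjusted p below 0.05, against 13.8% and 10.6% of all genes, and 2 and 3 called by DESeq2, against 5.52% and 5.03%). Elovl6, a fatty acid elongase, was higher in all mutant libraries, at 9.91 to 16.0 CPM in WT, 34.0 to 92.5 CPM in ΔPod and 29.5 to 98.4 CPM in K2A (2.16, adjusted p = 0.162, and 1.99, adjusted p = 0.204). Acss2, which makes cytosolic acetyl-CoA from acetate, was lower in all, at 274 to 453, 61.1 to 189 and 110.2 to 216 CPM (-1.68, adjusted p = 0.211, and -1.33, adjusted p = 0.333). Of the 12, 8 lay below 0 in ΔPod and 6 in K2A, with medians of -0.55 and -0.11.

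**Figure D4:**
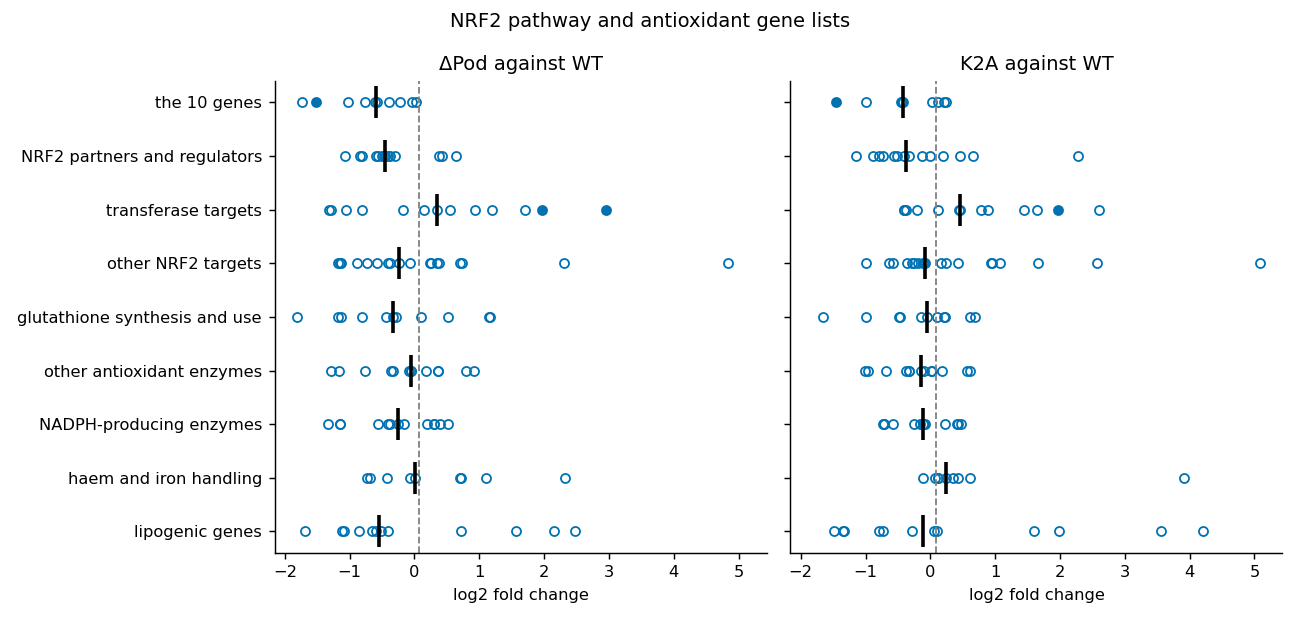
Log2 fold change (horizontal axis) of every tested gene of each list in ΔPod and K2A against WT. Each circle is a gene, filled where the adjusted p was below 0.05, black bars are list medians and dashed lines the median of all genes (0.08 and 0.09). The filled circles are Me1 on the left of 0 and the transferases Gsta2 and, in ΔPod, Gsta4 on the right.

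Genes with the profile most like that of Me1 were sought among 14489 tested genes by the root mean square difference of centred log2 CPM over the 9 libraries, which differ in depth and length class. The nearest were Mkrn1, a ubiquitin ligase (0.127), Rdh10, a retinol dehydrogenase (0.148), and Slc51a, a subunit of the organic solute transporter (0.152). Mkrn1 was at 116 to 121 CPM in WT, 43.0 to 51.8 CPM in ΔPod and 43.0 to 59.3 CPM in K2A (-1.32, adjusted p = 0.0489, and -1.27, adjusted p = 0.0561). Rdh10 passed in both mutants (-1.46, adjusted p = 0.0225, and -1.58, adjusted p = 0.0195), and Slc51a in neither (-1.44, adjusted p = 0.0638, and -1.41, adjusted p = 0.0739). These genes were picked for their likeness to Me1 in the same libraries. A similar fall in both mutants therefore follows from the choice and is no separate evidence. No other gene of the 10 was near Me1 on this measure: the closest was Hmox1 at 0.423 and the farthest Nqo1 at 0.849.

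The profile of Nfe2l2, flat but for K2A 3, was closest to Acot4, a peroxisomal thioesterase (0.0948), Ric1, part of a Golgi exchange factor complex (0.119), and Plscr4, a phospholipid scramblase (0.124). Of its own pathway, Gclc was the nearest of the 10 at 0.304, followed by Srxn1 at 0.354. Me1 and Hmox1 were the farther ones, at 0.769 and 0.838. By rank order over the libraries other genes came first, Nucb2, Cyp2a5 and P2ry1 for Me1 and Utp25, Elf1 and Adamtsl1 for Nfe2l2.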

How the data were processed

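Polyadenylated RNA of whole kidney had been sequenced in 9 libraries, and the authors deposited whole-number counts per gene symbol in 2 tables, each with WT and 1 mutant group. The submitters' processing notes list featureCounts 2.0.1, STAR 2.7.3a and Trim Galore 0.6.3 with the build mm10, without their roles. The strand setting and the handling of multiply mapped reads are not given in the sources used here. Of 52163 shared symbols 3 had WT counts that differed between the tables and were left out.

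All 9 libraries entered a single fit in edgeR 4.0.16 (R 4.3.3) with TMM factors, filterByExpr, a group term and the quasi-likelihood test, adjusted by Benjamini-Hochberg over 18067 genes at 0.05. CPM are TMM-scaled, and log2 CPM use a prior count of 2. Coordinates are from GENCODE vM21. The steps were tested on simulated data with the same spread for every gene and no length difference between libraries. That test therefore does not cover the difference in length class seen here. Alternatives used other scaling or filters, DESeq2 1.42.0, limma-voom (limma 3.58.1), covariates, a replicate block and fewer libraries. The 10 genes, the lists and the tests were chosen with earlier results of these data known. All 10 were named, with every called gene of the other lists, or the 2 with the smallest p where none was called, and the 3 genes most like Me1 and Nfe2l2. Me2 and Me3 were added after their values were seen.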

Additional observations from a re-analysis of the deposited data

How the results depend on the processing

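Of the 10 genes, the count called in ΔPod (1) became 2 with the adipocyte marker mean as a covariate, 3 with DESeq2, 2 with the length class as a term, 5 with the length slope as a covariate, 6 with limma-voom, and 0 with library size alone, with no low-count filter, with only the 6 libraries compared, and without the 3 libraries with high adipocyte markers. It was 0 to 2 with a library left out. In K2A (1) it became 2 with the length slope, 8 with limma-voom, and 0 with library size alone, no filter or upper quartile factors. It was 0 to 1 in K2A with a library left out. No K2A count is given without the libraries with high adipocyte markers, since K2A 3 is then the only K2A library. Between the mutants (0) it was 2 with limma-voom. Over all genes, the 178 calls in ΔPod became 521, 998, 715, 2577 and 14246 with the adipocyte covariate, DESeq2, length class, length slope and limma-voom, 54 with 6 libraries, 47 without the libraries with high adipocyte markers, and 23 to 411 with a library left out. The 153 calls in K2A became 504, 909, 739, 2864 and 14262 in the same order, 4 without the libraries with high adipocyte markers, and 3 to 291 with a library left out. The 0 calls between the mutants became 19 with DESeq2, 33 with the length slope, 5060 with limma-voom, and 0 to 2 with a library left out. The limma-voom fit weighted libraries from 0.0826 (K2A 3) to 11.6 (ΔPod 2). It called most of the 18067 tested genes in each mutant, so its 6 and 8 calls among the 10 genes are not particular to them. Upper quartile factors moved the all-gene median (log2) to 0.26 in ΔPod and 0.24 in K2A.

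Same-numbered libraries did not deviate together throughout (correlation -0.62 for WT 1 and ΔPod 1, 0.71 for WT 3 and ΔPod 3), so the numbers were not taken as pairs. With a replicate block 270 genes were called in ΔPod, 232 in K2A and 0 between the mutants, and of the 10 genes 2, 1 and 0.

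Directions changed as follows. In ΔPod, Nfe2l2 was -0.13 with limma-voom, -0.056 without the filter and -0.13 to 0.10 with a library left out. Nqo1 was 0.014 with upper quartile factors and -0.62 to 0.044 with a library left out. Srxn1 was 0.0012 with a filter of 1 CPM in 3 libraries, 0.19 with limma-voom, 0.15 with upper quartile factors and -0.16 to 0.063 with a library left out. In K2A, Nfe2l2 was -0.27 with limma-voom and -0.23 to 0.37 with a library left out. Gclc was -0.032 with DESeq2 or RLE factors, -0.028 with no filter, -0.14 with limma-voom and -0.20 to 0.18 with a library left out. Txnrd1 was 0.16 with the adipocyte covariate and 0.22 without the libraries with high adipocyte markers, and G6pdx 0.52 and 0.27. The values 0.22 and 0.27 rest on K2A 3 alone. Between the mutants, Nfe2l2 was -0.14 and Txnrd1 -0.42 with limma-voom. With a library left out, Nfe2l2 ran from -0.22 to 0.36, Txnrd1 from -0.35 to 0.35, Me1 from -0.051 to 0.15 and G6pdx from -0.0050 to 1.28 between the mutants, and Srxn1 from -0.0040 to 0.22 in K2A against WT.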
